A study of Homo sapiens with 48 samples.

Results

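XBP1 knockdown in clone 1 of the AMO1 myeloma line was followed from 24 h to 72 h of doxycycline (Dox). The comparison used the 3 libraries titled shXBP1.cl1 at 72 h and the 3 titled shXBP1.cl1 at 24 h, which are 6 of the 48 libraries of the series. AMO1 is an established human plasmacytoma line, and its RNA was measured by poly(A)-selected, strand-marking RNA-seq. Both groups are Clone 1 of AMO-1 with the XBP1 shRNAs sh4,6,7, that is, 3 shRNAs under Dox control. The making of the line is not described in the methods read, which for other shRNA lines of the study give a puromycin-resistant piggyBac vector and single-cell cloning. Both groups received 0.2 ug/ml Dox, 1 for 24 h and the other for 72 h, and the 48 h libraries (0.2 ug/ml) and the untreated 0 h libraries of the same clone served as description and as the start of the course. The titles give the hours as days ("day72"), and the hours were taken from the treatment labels. The labels describe the 3 replicates of a group as biological triplicates grown in flasks. The line is 1 clone, and no library with a non-targeting shRNA was analysed here, so hours of knockdown, hours of Dox and hours in culture cannot be told apart.

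XBP1 encodes a transcription factor of the unfolded protein response. The endoribonuclease IRE1 cuts the XBP1 mRNA, and the religated form is translated into XBP1s, which switches on genes for protein entry into the ER, folding, N-glycosylation, ER-associated degradation (ERAD) and transport to the Golgi. Plasma cells need this programme to build a secretory apparatus large enough for antibody export. The counts are per gene and do not separate the spliced from the unspliced XBP1 mRNA.

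The 12 libraries of clone 1 held 27001186 to 40767202 counted reads each, so that 1 read was worth at most 0.037 CPM (counts scaled to a common library size, with TMM factors). Markers of plasma cells were present, with SDC1 at 6475 to 9503 CPM at 24 h and 6160.4 to 7342 CPM at 72 h, whereas CD27 was under 1 CPM. Of 28 markers of other blood cells, 24 were under 1 CPM in every library and 9 of these were at 0, and the list's summed level, mostly CD4, was 158 to 168 CPM at 24 h and 146 to 154 CPM at 72 h. All 14 markers of stromal and epithelial cells were under 1 CPM. The libraries of a group differed mainly by the GC content of the genes: the first component held 79.8% of the variance within groups, and genes with over 60% GC deviated from the clone's mean by -0.32, 0.33 and -0.029 (log2) in the 24 h libraries and by 0.035, -0.24 and -0.19 in the 72 h libraries. Every count is therefore given from the edgeR fit and, where it matters, from a second edgeR fit with a GC trend removed from each library, which was chosen after the data were seen.

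Few genes changed after the first day at the size and spread of these libraries. Of 16603 genes tested, 34 (0.205%) differed between 72 h and 24 h at an edgeR adjusted p under 0.05, with 25 higher (0.151%) and 9 lower (0.0542%) at 72 h. By comparison, the first day alone (24 h against 0 h) changed 4430 genes (26.7%; 13.9% higher and 12.8% lower), and 72 h against 0 h changed 5584 (33.6%). Of the 34, 12 deepened a change of the first day (7 falls and 5 rises), 7 reverted toward 0 h (5 rose back and 2 fell back), and 15 newly appeared, all as rises. The other 4411 genes of the first day held, in the sense that 72 h was not called different from 24 h, and 3638 of the 4430 were called in the same direction at 72 h against 0 h. The 24 h libraries enter both steps with opposite sign, which by itself makes a reversal more likely to be called and a deepening less likely.

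The number of calls rested on individual libraries. It was 13 higher and 3 lower without 24 h replicate 1, 13 and 2 without 24 h replicate 2, and 5 and 1 without 24 h replicate 3. It was 8 and 1 without 72 h replicate 1, 4 and 0 without 72 h replicate 2, and 6 and 1 without 72 h replicate 3. HLA-DRA, P4HA2, PFKFB4 and PPFIA4 kept their call in all 6 of these fits, and 16 of the 34 genes kept it in none. In the GC-corrected fit 866 genes (5.22%) differed, 501 higher (3.02%) and 365 lower (2.20%), and all 34 genes were among them with the same direction. There, 356 deepened, 234 reverted, 237 newly appeared and 39 drifted late without a call against 0 h. With the GC correction and 1 library left out, 33 of the 34 genes kept their call in all 6 fits, and RPL37 kept it in 1.

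**Figure D1:**
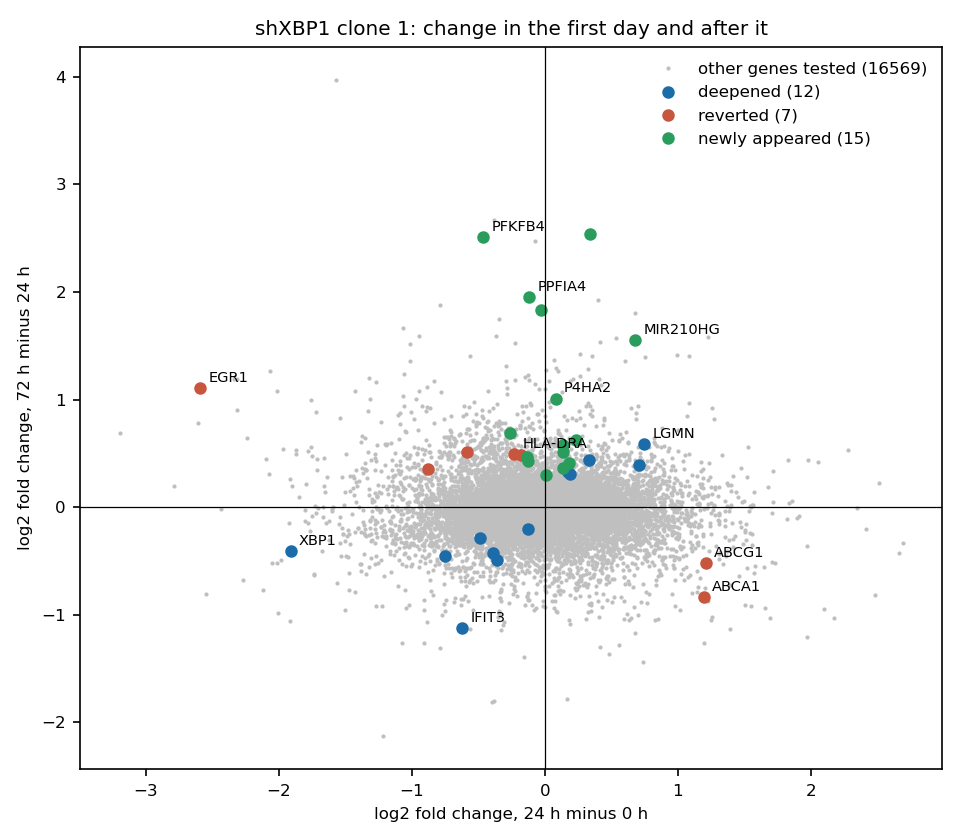
Each point is 1 of the genes tested in shXBP1 clone 1, placed by its log2 fold change in the first day (24 h minus 0 h, x axis) and after it (72 h minus 24 h, y axis), with the 34 called genes coloured by class. The 12 deepened genes lie where both changes share a sign, the 7 reverted genes where they oppose, and the 15 newly appeared genes lie above 0 on the y axis and on both sides of 0 on the x axis, where their first-day changes were not called.

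The knockdown itself went further after 24 h. XBP1 was at 153, 168 and 171 CPM at 0 h, 47.1, 41.3 and 42.6 at 24 h, 32.6, 36.9 and 35.01 at 48 h and 32.5, 32.6 and 33.5 at 72 h. Every 72 h library was thus below every 24 h library, and most of the fall came in the first day. The log2 fold change was -1.91 from 0 to 24 h (edgeR adjusted p = 3.91e-08) and -0.41 ± 0.069 (SE, n = 3) from 24 to 72 h (edgeR adjusted p = 0.0473), a call kept in 1 of the 6 fits that each left out 1 library. In bulk RNA, fewer cells with the transcript and less transcript per cell cannot be told apart. The 250 bases before the annotated XBP1 start hold 1 match to the ER stress response element, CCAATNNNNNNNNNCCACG, searched on both strands and found in 0.074% of 35114 RefSeq promoters of this length. The sequence is shown because the targeted gene carries the element that ER stress factors are known to read. It is chr22:28800570-28800819 (GRCh38.p14, minus strand, RefSeq), and the capitals mark the fixed letters of the element.
XBP1: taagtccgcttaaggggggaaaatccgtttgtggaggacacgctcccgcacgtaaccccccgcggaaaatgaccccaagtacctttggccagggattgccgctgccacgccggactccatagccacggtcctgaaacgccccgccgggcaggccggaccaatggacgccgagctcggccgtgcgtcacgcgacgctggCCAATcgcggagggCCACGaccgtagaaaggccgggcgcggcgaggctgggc

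Genes of the early secretory pathway were among the other falls that deepened. RPN2, a subunit of the oligosaccharyltransferase that adds N-glycans in the ER, was at 977, 950.0 and 974 CPM at 24 h and 845, 844 and 833 CPM at 72 h, after 1051, 1054 and 1057 CPM at 0 h. The groups did not overlap, although the step was small (log2 fold change -0.20 ± 0.035, edgeR adjusted p = 0.0488). ERGIC1, a protein of the ER-Golgi intermediate compartment, was at 302, 338 and 331 CPM at 24 h and 266, 263 and 267 CPM at 72 h. It had lost more in the first day (-0.49) than after it (-0.29 ± 0.05, edgeR adjusted p = 0.0488).

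IFIT3, an interferon-induced antiviral gene, had the largest fall of the 34. It was at 4.32, 6.61 and 5.96 CPM at 0 h, 4.03, 3.21 and 3.75 at 24 h and 1.39, 2.04 and 1.58 at 72 h. The level is low, and the log2 fold change of -1.13 ± 0.20 (edgeR adjusted p = 0.0488) was not kept in any of the 6 fits that left out 1 library. Of 26 interferon-stimulated genes tested, IFIT3 was the 1 called, and the list's median was -0.054 (log2) beside -0.0076 over all genes tested. A pair of further deepened falls, MTCYBP18 (-0.49) and MTCYBP35 (-0.43), are nuclear copies of the mitochondrial cytochrome b gene and are uncertain, because MT-CYB itself was at 3119, 3285 and 2891 CPM at 24 h and 2597, 2547 and 2521 CPM at 72 h.

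The lists of the secretory pathway moved little as groups after the first day. In the first day 14 of 25 ER chaperones and cochaperones fell, as did 21 of 34 genes of translocation and signal peptide processing. Falls also took in 15 of 37 genes of N-glycan synthesis and transfer, 12 of 29 of ERAD and 22 of 42 of ER to Golgi traffic. Of all genes 12.8% fell in that day. From 24 to 72 h, RPN2 was the 1 call in these 5 lists, and their medians were -0.060, -0.063, -0.10, -0.063 and -0.025 (log2), against -0.0076 over all genes tested. In the GC-corrected fit 5, 9, 10, 6 and 7 of their members fell and 1, 0, 0, 0 and 0 rose, where 2.20% of all genes were lower. The members named next were chosen from that fit after its values were seen. MZB1, a plasma cell chaperone for antibody assembly, was at 244, 314 and 292 CPM at 24 h and 214, 183 and 189 CPM at 72 h (GC-corrected log2 fold change -0.45 ± 0.04, edgeR adjusted p = 3.07e-05; 0.0970 without the correction). SEC61A1, the pore of the translocon, was at 491, 536 and 522 and then 470.4, 454 and 447 CPM (-0.15, edgeR adjusted p = 0.00326; 0.204 without the correction). SSR1, of the translocon-associated complex, and STT3A, the catalytic subunit of the oligosaccharyltransferase, had GC-corrected log2 fold changes of -0.23 and -0.19, after -0.98 and -0.57 in the first day. Of the 6 ERAD members that fell in that fit, HERPUD1 and EDEM1 had risen in the first day, by 0.19 and 0.37 (log2).

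Among the rises that deepened, LGMN had the largest estimate of the 5. LGMN encodes legumain, a lysosomal endopeptidase, and was at 91.4, 101 and 91.4 CPM at 0 h, 159.5, 161 and 154 at 24 h, 149, 173 and 182 at 48 h and 237, 247 and 229.6 at 72 h. The 48 h libraries overlapped those of 24 h, and all 72 h libraries lay above those of 48 h. Its log2 fold change from 24 to 72 h was 0.59 ± 0.069 (edgeR adjusted p = 0.00481), kept in 4 of the 6 fits that left out 1 library.

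The other rises that deepened were smaller. BCL2L11 (BIM), a pro-apoptotic BH3-only protein, was at 74.7, 80.96 and 79.8 CPM at 0 h, 90.9, 89.7 and 85.3 at 24 h and 108, 112 and 113 at 72 h (log2 fold change 0.33 ± 0.053 after 24 h, edgeR adjusted p = 0.0387). CDKN1B, the CDK inhibitor p27, was at 117, 109 and 106 CPM at 24 h and 139, 131 and 140.4 CPM at 72 h (0.31 ± 0.051, edgeR adjusted p = 0.0427). Both genes stood higher in every 72 h library than in any 24 h library, by less than 1.5-fold, and over the 6 fits that left out 1 library the call was kept in 0 for BCL2L11 and 1 for CDKN1B. RIPOR2 was at 112, 111 and 110.5 CPM at 24 h and 142, 149 and 149 CPM at 72 h, and ZBTB18, a zinc finger repressor, at 13.01, 12.5 and 12.97 and then 17.6, 17.1 and 17.6 CPM (log2 fold changes 0.40 and 0.44, each kept in 0 of those fits). CDKN1B was the 1 call among 29 p53 targets and CDK inhibitors and BCL2L11 the 1 call among 25 apoptosis regulators. With the GC correction 7 and 3 members of these lists rose and none fell, including CDKN2B (0.40) and MCL1 (0.18), where 3.02% of all genes were higher.

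EGR1 led the genes that reverted. EGR1, an immediate-early transcription factor, was at 70.6, 91.3 and 63.1 CPM at 0 h, 10.5, 15.6 and 11.2 at 24 h, 16.9, 13.1 and 16.9 at 48 h and 26.2, 28.8 and 25.4 at 72 h. The 72 h libraries lay above every 24 h library and below every 0 h library, so that the return was partial. The log2 fold change was -2.59 in the first day and 1.11 ± 0.17 after it (edgeR adjusted p = 0.0285), kept in 1 of the 6 fits that left out 1 library. ZFP36L2, which promotes decay of AU-rich mRNAs, likewise came back in part, from 124, 118 and 115 CPM at 24 h to 151, 151 and 154 CPM at 72 h against 229, 219 and 209 CPM at 0 h (0.35 ± 0.048, edgeR adjusted p = 0.0119).

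TNFRSF10D, a decoy receptor for the death ligand TRAIL, returned near its start. It was at 39.4, 43.3 and 40.9 CPM at 0 h, 26.8, 29.8 and 25.97 at 24 h and 38.7, 38.3 and 40.9 at 72 h. The late log2 fold change was 0.51 ± 0.068 (edgeR adjusted p = 0.0116), and 72 h was not called different from 0 h (-0.068, edgeR adjusted p = 0.462). PNRC1, a nuclear receptor coactivator, and HLA-DRA dipped at 24 h and passed their 0 h level by 72 h. PNRC1 was at 60.99, 60.2 and 54.7 CPM at 0 h, 52.8, 52.3 and 50.5 at 24 h and 72.3, 73.3 and 72.9 at 72 h (0.49 ± 0.058, edgeR adjusted p = 0.00481).

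Both genes that reverted from an early rise export cholesterol. ABCA1 was at 2.24, 2.58 and 3.07 CPM at 0 h, 5.89, 5.92 and 6.20 at 24 h, 3.97, 5.03 and 4.69 at 48 h and 2.93, 3.21 and 3.93 at 72 h. The 72 h libraries lay below all 24 h libraries and within or just above the range of 0 h (-0.83 ± 0.14 after 24 h, edgeR adjusted p = 0.0438). ABCG1 was at 10.1, 9.35 and 9.36 CPM at 0 h, 21.3, 23.3 and 21.98 at 24 h and 15.8, 15.7 and 14.95 at 72 h, and so kept part of its rise (-0.52 ± 0.072, edgeR adjusted p = 0.0123). The ABCA1 call was kept in 0 and the ABCG1 call in 1 of the 6 fits that left out 1 library. Both had been placed in the list of cholesterol synthesis and SREBP2 targets. They were the 2 called of its 27 genes tested, so that no synthesis gene was called. With the GC correction 4 genes of the same list rose, among them HMGCS1 (0.16, log2) and SQLE (0.19).

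PFKFB4 and PPFIA4 led the new rises, and 3 of the new genes (PFKFB4, P4HA2 and SLC2A3) belong to the glycolysis and hypoxia list. PFKFB4, an enzyme that sets the level of an activator of glycolysis, was at 4.96, 9.44 and 5.26 CPM at 0 h, 4.44, 4.85 and 5.10 at 24 h, 7.19, 10.7 and 10.8 at 48 h and 28.7, 28.4 and 24.8 at 72 h. It was not called in the first day, higher in every 48 h library than at 24 h, and higher again in every 72 h library (log2 fold change 24 to 72 h 2.51 ± 0.22, edgeR adjusted p = 8.00e-04). PPFIA4, a scaffold protein of the liprin family, followed the same order, at 3.07, 4.23 and 3.88 CPM at 24 h, 4.97, 7.07 and 7.45 at 48 h and 15.5, 14.8 and 13.00 at 72 h (1.95 ± 0.20, edgeR adjusted p = 0.00282). P4HA2, a collagen prolyl hydroxylase subunit, was at 4.79, 4.45 and 4.46 CPM at 24 h and 9.97, 8.35 and 9.26 CPM at 72 h (1.01 ± 0.11, edgeR adjusted p = 0.00378). The glucose transporter gene SLC2A3 was at 26.9, 25.7 and 23.7 CPM at 24 h and 35.99, 42.5 and 38.9 CPM at 72 h (0.62 ± 0.084, edgeR adjusted p = 0.0119). MIR210HG, the host transcript of a microRNA known to be induced by hypoxia, was at 1.21, 1.69 and 1.02 CPM at 24 h and 4.18, 4.04 and 3.41 CPM at 72 h (1.56 ± 0.20, edgeR adjusted p = 0.00918). MIR210HG lies below the level set for naming and was named after its values were seen.

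**Figure D2:**
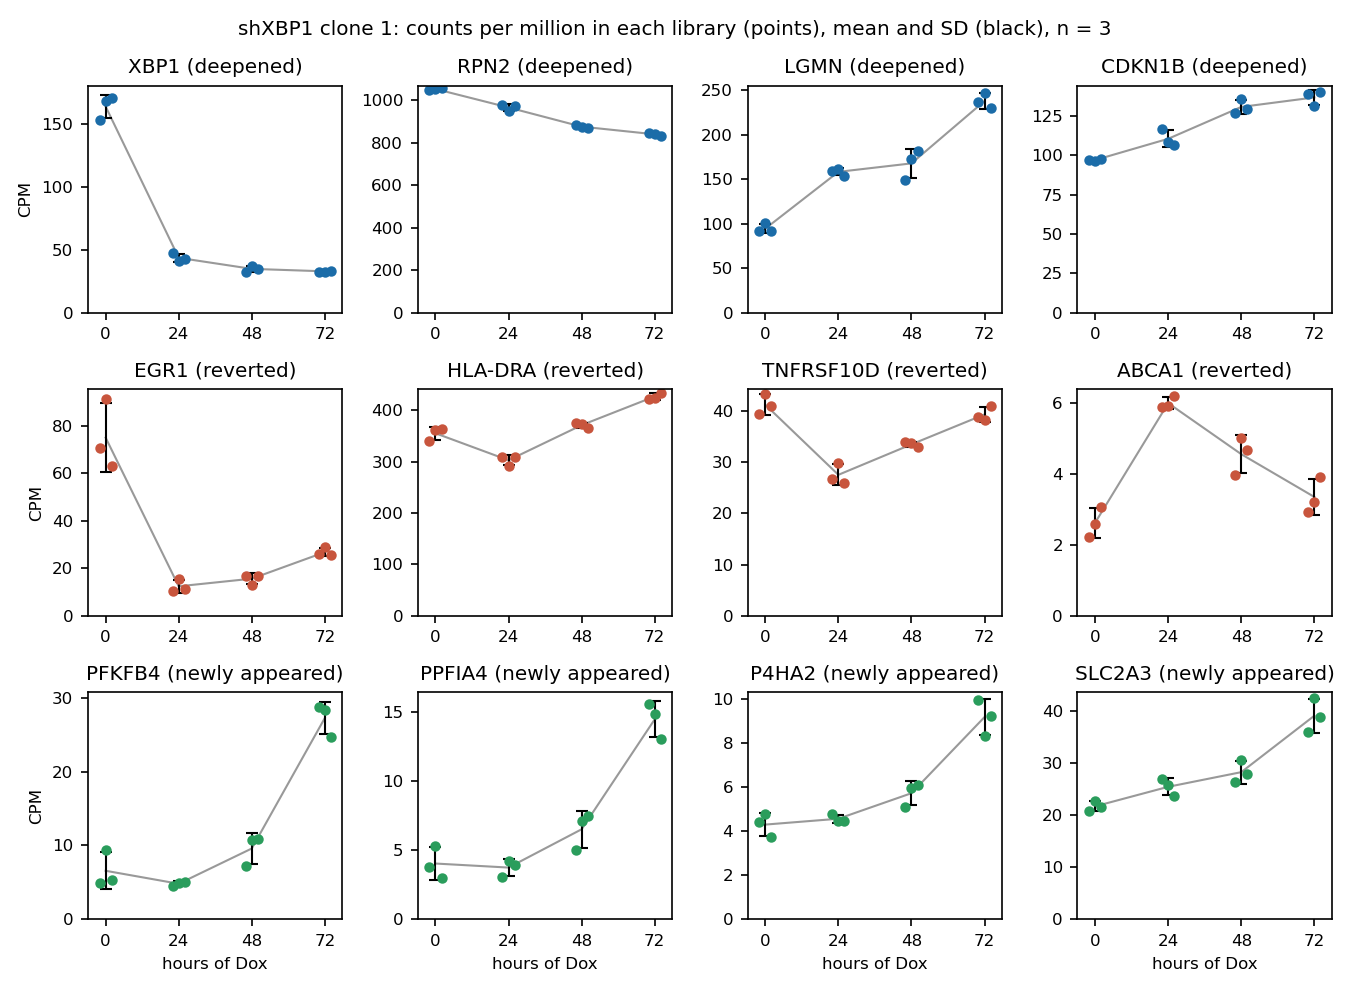
CPM (scaled counts, y axis from 0) of 12 of the called genes in each shXBP1 clone 1 library over the hours of Dox (x axis), with points for libraries, and the mean and SD of 3 libraries in black. The means of XBP1 and RPN2 keep falling and those of LGMN and CDKN1B keep rising, EGR1, HLA-DRA, TNFRSF10D and ABCA1 turn back after 24 h, and PFKFB4, PPFIA4, P4HA2 and SLC2A3 are highest in the 72 h libraries.

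The wider list of glycolysis and hypoxia held 36 tested genes, of which PFKFB4, P4HA2 and SLC2A3 rose (3 against 0.151% of all genes) and none fell. The list's median was 0.15 (log2), with 31 of 36 estimates above 0, beside a median of -0.0076 over all genes tested. In the GC-corrected fit 20 of the 36 rose and 1, SLC16A1, fell, against 3.02% and 2.20% of all genes. LDHA, PKM, ENO1, GPI, GAPDH and SLC2A1 of those that rose had fallen in the first day. LDHA, which turns pyruvate into lactate, was at 655, 747 and 707 CPM at 0 h, 556, 479 and 528 at 24 h and 609, 646 and 628 at 72 h (GC-corrected 0.23 ± 0.037, edgeR adjusted p = 0.00234; 0.224 without the correction). PGK1, of the payoff phase of glycolysis, was at 709, 660.2 and 704 and then 821, 847 and 831 CPM (0.24 ± 0.03, edgeR adjusted p = 4.05e-04; 0.0570 without). BNIP3L, a mitophagy receptor that hypoxia is known to induce, had begun to rise in the first day, and was at 114, 91.3 and 105 CPM at 24 h and 145, 148 and 146 CPM at 72 h (0.44 ± 0.049, edgeR adjusted p = 1.50e-04; 0.0970 without). These members were chosen after the values of that fit were seen.

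Of the 34 called genes, 19 matched an entry in the RefSeq promoter table used. The 250 bases before the start of the new genes PFKFB4, PPFIA4, MIR210HG and P4HA2 are printed because these genes rose together. The pentamer ACGTG, a core of the sites read by hypoxia-inducible factors that also lies within other elements, was searched on both strands, is set in capitals and was present in 18.5% of the 35114 promoters. PPFIA4 holds an overlapping pair, 1 on each strand, MIR210HG holds 1 match, and PFKFB4 and P4HA2 hold no ACGTG in this window. Variants of the core were not searched, so a window without ACGTG may still hold such a site. Of the 19 matched genes, 7 hold at least 1 match, among them BHLHE40 with 4, ABCA1 with 2, and RPL6, EGR1 and XBP1 with 1 each. The regions (GRCh38.p14, RefSeq) are chr3:48556804-48557053 on the minus strand, chr1:203026241-203026490 on the plus strand, chr11:568458-568707 on the minus strand and chr5:132227092-132227341 on the minus strand.
PFKFB4: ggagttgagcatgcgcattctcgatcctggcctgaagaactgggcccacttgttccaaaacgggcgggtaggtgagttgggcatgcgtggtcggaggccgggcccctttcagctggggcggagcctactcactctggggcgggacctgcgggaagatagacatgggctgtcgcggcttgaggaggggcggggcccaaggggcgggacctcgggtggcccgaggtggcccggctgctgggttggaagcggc
PPFIA4: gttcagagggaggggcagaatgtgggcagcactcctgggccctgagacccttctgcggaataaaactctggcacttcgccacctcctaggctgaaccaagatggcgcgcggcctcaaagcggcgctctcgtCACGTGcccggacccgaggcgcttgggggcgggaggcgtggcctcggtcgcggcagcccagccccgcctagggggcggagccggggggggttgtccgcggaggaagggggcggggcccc
MIR210HG: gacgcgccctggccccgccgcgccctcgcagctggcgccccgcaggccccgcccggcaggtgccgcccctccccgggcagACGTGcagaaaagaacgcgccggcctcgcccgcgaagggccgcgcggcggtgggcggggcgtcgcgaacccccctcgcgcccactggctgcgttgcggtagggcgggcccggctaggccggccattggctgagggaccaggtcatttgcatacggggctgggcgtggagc
P4HA2: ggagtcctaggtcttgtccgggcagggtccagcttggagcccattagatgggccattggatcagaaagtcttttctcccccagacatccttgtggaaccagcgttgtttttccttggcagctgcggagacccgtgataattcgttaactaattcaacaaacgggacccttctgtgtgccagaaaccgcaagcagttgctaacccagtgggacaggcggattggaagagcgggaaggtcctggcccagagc

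Genes of MHC class II, which present peptides to CD4 T cells and are a B cell trait that plasma cells largely lose, also rose after the first day. HLA-DRA was at 341, 361 and 364 CPM at 0 h, 309, 291 and 308 at 24 h, 375, 373 and 366 at 48 h and 423, 424 and 434 at 72 h. The 72 h libraries were above those of all other times, and the log2 fold change after 24 h was 0.50 ± 0.043 (edgeR adjusted p = 8.00e-04). HLA-DQA1 was at 23.98, 22.6 and 25.8 CPM at 24 h and 35.1, 34.2 and 34.3 CPM at 72 h (0.52 ± 0.07, edgeR adjusted p = 0.0119). HLA-DRB1 was at 46.8, 53.7 and 53.8 and then 69.96, 66.3 and 70.8 CPM (0.43 ± 0.067, edgeR adjusted p = 0.0307), and is uncertain because it shares sequence with HLA-DRB5 (7.50 to 8.96 and then 10.4 to 11.7 CPM).

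Of 16 class II genes tested these 3 rose (0.151% of all genes did) and none fell, with a median of 0.19 (log2). With the correction 8 of the 16 rose, against 3.02% of all genes, and none fell. Beside the genes above they were HLA-DRB5, HLA-DPB1, HLA-DMA, the invariant chain CD74 (0.34) and CIITA, the master activator of the class, which was at 55.6, 46.8 and 49.3 CPM at 0 h, 36.6, 46.2 and 39.03 at 24 h and 50.3, 49.5 and 48.6 at 72 h (GC-corrected 0.32 ± 0.063, edgeR adjusted p = 0.00816; 0.348 without). The CIITA libraries of 72 h were above those of 24 h and within the range of 0 h.

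The other new rises were of mixed function. BHLHE40, a transcriptional repressor, was at 57.7, 59.9 and 58.4 CPM at 24 h and 77.8, 76.4 and 72.1 CPM at 72 h (0.36 ± 0.057, edgeR adjusted p = 0.0307). The fucosyltransferase gene FUT11 was at 11.4, 10.7 and 11.3 and then 15.2, 15.2 and 14.1 CPM (0.41), and the receptor gene P2RY10 at 3.25, 3.06 and 2.97 and then 4.58, 4.61 and 4.69 CPM (0.58). AC246787.1 was at 1.16, 1.25 and 1.29 CPM at 24 h and 4.51, 3.61 and 5.06 CPM at 72 h (1.83 ± 0.26, edgeR adjusted p = 0.0149). The ribosomal protein genes RPL6 (0.69) and RPL37 (0.30) and the elongation factor pseudogene EEF1A1P42, which stayed under 1 CPM in every library, share near-identical copies elsewhere in the genome and are uncertain. FUT11, BHLHE40, RPL37 and EEF1A1P42 fell outside the rule for naming and were named after their values were seen.

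No gene of the S phase or G2 and mitosis lists was called by edgeR after the first day, although the first day had changed many. In that day 30 of 52 S phase genes and 32 of 60 genes of G2 and mitosis fell, against 12.8% of all genes, and from 24 to 72 h edgeR called 0 of either list, with 3 and 6 genes at an unadjusted p under 0.05, and DESeq2 and limma also called 0 of each. The median late change was -0.056 (log2) for S phase and 0.11 for G2 and mitosis, with 53 of the 60 estimates above 0. After GC correction 10 G2 and mitosis genes rose and none fell, and 3 S phase genes fell and none rose, against 3.02% of all genes higher and 2.20% lower. The mitotic cyclin CCNB1 was at 271, 292 and 304 CPM at 0 h, 227, 191 and 227 at 24 h and 248, 255 and 251 at 72 h (GC-corrected 0.19 ± 0.037, edgeR adjusted p = 0.00765; 0.254 without). E2F1, the S phase transcription factor, was at 56.7, 74.4 and 64.1 and then 54.5, 47.3 and 49.5 CPM (-0.24 ± 0.06, edgeR adjusted p = 0.0288; 0.258 without). MKI67, CDC25A and UHRF1 were not called in either fit, with late log2 fold changes of 0.075, -0.052 and -0.16.

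**Figure D3:**
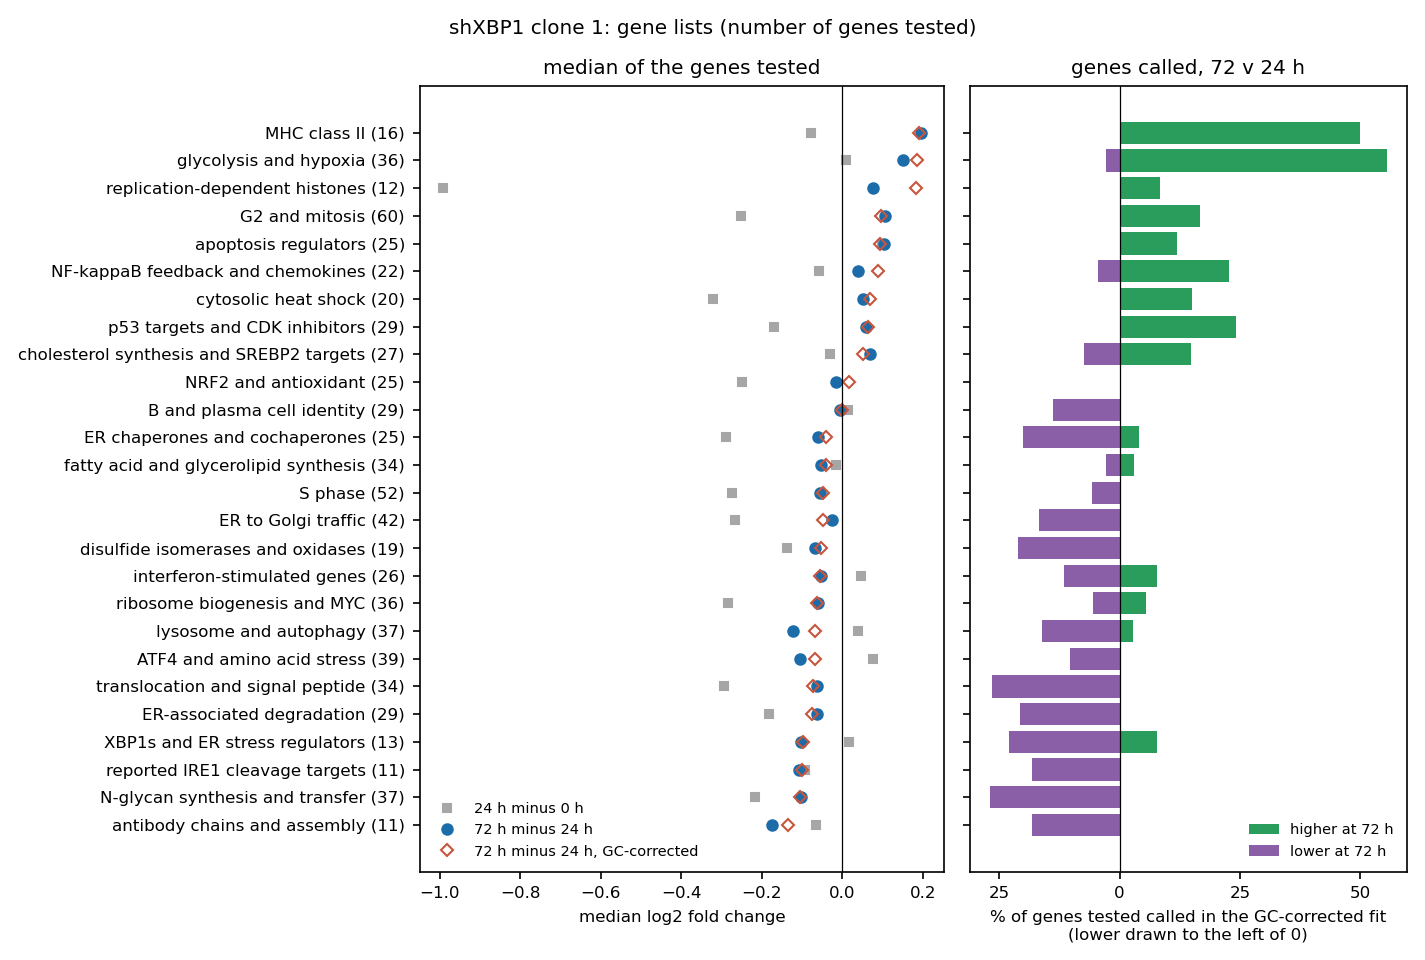
Left, the median log2 fold change (x axis) of each gene list (y axis, number of genes tested) for 24 h minus 0 h, for 72 h minus 24 h, and for the latter in the GC-corrected fit. Right, the percentage of each list called higher or lower at 72 h than at 24 h in the GC-corrected fit: glycolysis and hypoxia (20 of 36) and MHC class II (8 of 16) have the most rises, and the secretory lists have mainly falls.

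Apart from XBP1, no regulator in the lists of ER stress and of B and plasma cell identity was called by edgeR after 24 h. Of 13 ER stress regulators tested, XBP1 included, 11 estimates lay below 0. In the GC-corrected fit 3 of the 13 fell, among them XBP1 itself (-0.45) and ATF6 (-0.099), and 1 rose. Of 12 plasma cell markers 5 fell and none rose there, where 2.20% of all genes were lower and 3.02% higher. XBP1, the targeted gene, is also counted among those 5. IRF4, the lineage factor of myeloma cells, was at 1316, 1418 and 1427 CPM at 0 h, 1568, 1504 and 1519 at 24 h and 1541, 1549 and 1571 at 72 h, with a late log2 fold change of 0.022 ± 0.045 (edgeR adjusted p = 0.902). PRDM1, a repressor that installs the plasma cell state, had 0.064 ± 0.045 (edgeR adjusted p = 0.707) and MYC -0.13 ± 0.10 (edgeR adjusted p = 0.744). ERN1, which encodes IRE1, had risen in the first day (184, 189 and 181 CPM at 0 h and 303, 331 and 306 at 24 h) and was at 305, 304 and 302 CPM at 72 h (-0.044 ± 0.043, edgeR adjusted p = 0.794). The stress genes DDIT3 and CHAC1 had risen by 0.95 and 0.99 (log2) in the first day. DDIT3 then had -0.18 ± 0.075 (edgeR adjusted p = 0.464) and CHAC1 -0.46 ± 0.16 (edgeR adjusted p = 0.328; GC-corrected adjusted p = 0.00214). HSPA5 (BiP), the main ER chaperone, was at 1795 to 1815 CPM at 24 h and 1871 to 1898 CPM at 72 h (0.061 ± 0.039, edgeR adjusted p = 0.674). Its 48 h libraries, at 2084, 2032 and 2022 CPM, lay above those of both times.

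A pair of genes came close to the threshold from opposite first days. CD59, a complement inhibitor and reported IRE1 cleavage target, was at 283, 308 and 302 CPM at 0 h, 162, 146 and 152 at 24 h and 127, 129.9 and 128 at 72 h, with a late log2 fold change of -0.25 ± 0.05 (edgeR adjusted p = 0.0718; 4.77e-05 with the GC correction). HERPUD1, a component of ERAD, had risen in the first day and was at 591, 589 and 593 CPM at 0 h, 669, 661 and 691 at 24 h and 591, 592 and 591 at 72 h (-0.19 ± 0.038, edgeR adjusted p = 0.0718; 0.00179 with the GC correction). The 72 h libraries of both genes lay below all 24 h libraries.

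The second XBP1 clone, Clone 18 of AMO-1 with the same XBP1 shRNAs, Dox dose and times, was the closest comparison and shares no library with clone 1. There 21 genes (0.125%) were called between 72 h and 24 h, and 309 (1.83%) in the GC-corrected fit. The library labelled clone 18 72 h replicate 3 correlated at 0.982 with its own group and at 0.994 with the clone 1 72 h libraries, and so stood closer to clone 1 than to the clone on its label. Without it 41 genes were called. The fall of XBP1 and the rises of PFKFB4 and PPFIA4 were called in both clones. In clone 18 XBP1 changed by -0.72 (log2; edgeR adjusted p = 0.00497), PFKFB4 by 1.04 (0.00709) and PPFIA4 by 0.98 (0.00497), and without that library by -0.61, 1.18 and 1.03. Without it IFIT3 (-0.66, edgeR adjusted p = 0.0099) and ERGIC1 (-0.29, 0.0474) were also called lower in clone 18, and RPN2 was not (-0.21, 0.0593).

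The difference between the clones was called for 1 gene of 17448 (0.00573%), LGMN, whose change was -0.039 in clone 18 and larger by 0.62 (log2) in clone 1 (edgeR adjusted p = 0.00486). Without the library labelled clone 18 72 h replicate 3 the difference was called for 6 genes, among them LGMN, P4HA2 (0.96, edgeR adjusted p = 0.00896), HLA-DRA (0.30, 0.0180) and ABCA1 (-1.13, 0.00896). After GC correction 51 genes (0.292%) differed, 5 of them from the glycolysis and hypoxia list and all with the more positive change in clone 1. These were PFKFB4 (1.504), P4HA2 (1.25), SLC2A3 (0.55), ALDOC (0.39) and BNIP3L (0.33). In clone 18 PFKFB4 had already gone from 4.18, 3.81 and 4.46 CPM at 0 h to 16.5, 12.1 and 14.6 at 24 h. It then reached 34.03, 30.9 and 24.1 CPM at 72 h. P4HA2 showed no such early rise in clone 18, at 16.5, 15.99 and 18.4 CPM at 0 h and 16.9, 17.02 and 17.9 at 24 h. At 72 h it was there at 17.96, 17.3 and 9.43 CPM, the last in the library labelled replicate 3. In clone 1 P4HA2 was at 9.97, 8.35 and 9.26 CPM at 72 h, below clone 18 replicates 1 and 2. LGMN in clone 18 was at 241, 233 and 246 CPM at 24 h and 242, 233 and 225 at 72 h. The differences tested are those of the step from 24 h, and the levels were not tested. EGR1 also differed in that fit (1.18), with -0.023 in clone 18, whose first day had gone the other way. It was there at 5.19, 3.28 and 3.73 CPM at 0 h and 27.8, 29.5 and 37.9 at 24 h. At 72 h it was at 39.8, 30.4 and 23.7 CPM. Without the library labelled clone 18 72 h replicate 3 these GC-corrected differences were 1.37, 0.98, 0.49, 0.39 and 0.30 for PFKFB4, P4HA2, SLC2A3, ALDOC and BNIP3L (edgeR adjusted p = 0.0150, 4.72e-04, 0.00838, 9.38e-04 and 0.0288). For EGR1 the difference was then 1.00 (edgeR adjusted p = 0.0167), with 0.15 in clone 18.

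In Clones 1 and 3 of AMO-1 with the IRE1 shRNAs sh7,8,9 (shIRE1, same Dox dose and times), the change from 24 to 72 h was compared with that in shXBP1 clone 1. Over all genes the difference, taken against the mean of the shIRE1 clones, was called for 3486 of 18146 (19.2%). The called genes below were chosen by their change in the same shXBP1 clone 1 libraries, which favours a difference, so their values are a description. PFKFB4 changed by -1.88 and -3.05 (log2) in shIRE1 clones 1 and 3, and the difference was 4.96. MIR210HG, P4HA2, SLC2A3 and EGR1 likewise fell in both shIRE1 clones. HLA-DRA changed by 1.24 and 1.33 there, HLA-DRB1 by 1.29 and 1.36, and HLA-DQA1 by 1.60 and 1.55, against 0.50, 0.43 and 0.52 in shXBP1 clone 1. Of the 36 glycolysis and hypoxia genes, 26 stood higher in shXBP1 clone 1 by the test of the difference and 1 lower, and of the 16 class II genes 1 stood higher and 14 lower. XBP1 changed by -0.48 and -0.72 there (difference 0.18), and CDKN1B rose by 0.30 and 0.39 in the shIRE1 clones (difference -0.052).

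**Figure D4:**
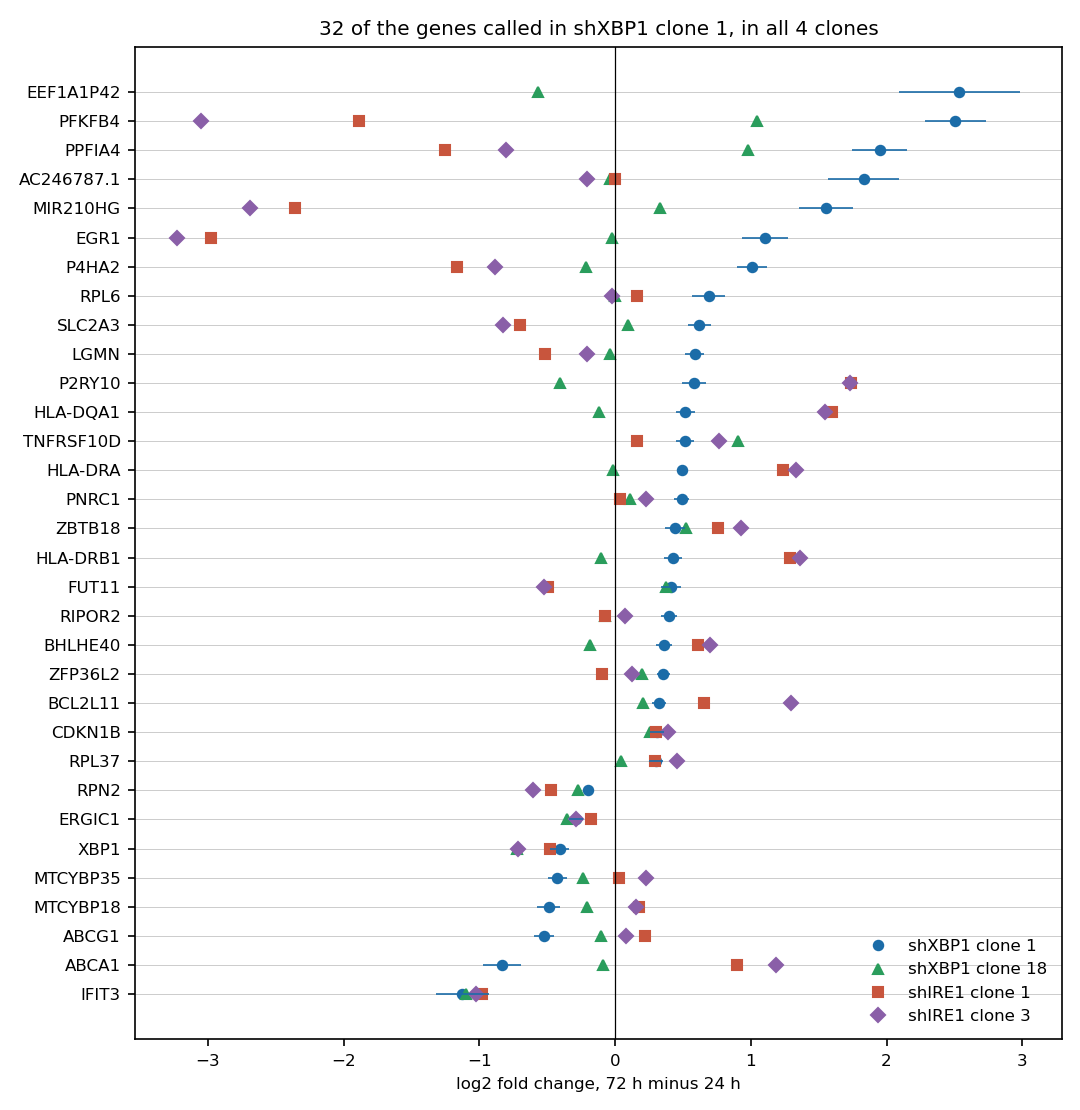
Log2 fold change from 24 to 72 h of Dox (x axis) of 32 of the genes called in shXBP1 clone 1 (y axis) in the 4 AMO1 clones, each from its own clone's fit, with the SE for shXBP1 clone 1. PFKFB4, PPFIA4, MIR210HG, EGR1 and P4HA2 lie above 0 in shXBP1 clone 1 and below 0 in both shIRE1 clones, whereas XBP1, RPN2, ERGIC1 and IFIT3 lie below 0 in all 4.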

How the data were processed

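The deposited table of raw read counts per gene for 48 libraries was used, together with the deposited log2 CPM table, which the authors had normalised (edgeR, run here with prior count 2, gave its values to within 4.97e-14). Per the submitters' processing notes the tools were GSNAP, R 4.1.3, edgeR 3.32.1 and limma 3.46.0, with the builds GRCh37 and hg19; the annotation and the counting program used for these libraries are not given in the sources used here. The reads were single-end from poly(A)-selected, stranded libraries.

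The counts were fitted with edgeR 4.0.16 in R 4.3.3 (filterByExpr, minimum count 10 and total 15; TMM; quasi-likelihood F test, Benjamini-Hochberg over all genes tested, 0.05), using the 12 shXBP1 clone 1 libraries with 1 mean per time. The SE is the log2 fold change over the root of F. Printed values are CPM with TMM factors. The GC-corrected fit subtracts, per library, a lowess trend (span 0.3) over 60 bins of transcript GC, taken from GENCODE by gene ID for 99.3% of genes. Other fits used DESeq2 1.42.0 and limma 3.58.1. All were also run on simulated counts, with and without the libraries' GC trends, which checks the code and not the results.

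Named genes were a panel of 30 genes, the 12 largest rises and falls, the 6 largest of each class and direction, and up to 4 called members per list, with mean log2 CPM above 1; some genes are not reported here. Members and lists were chosen with earlier results of these data known. Replicate numbers were not used to pair the samples (deviations of same-numbered 24 and 72 h libraries correlated at -0.31, -0.17 and 0.0036). The GC differences between libraries were not removed for these values, so whether same-numbered samples shared a culture cannot be told. The mean chi-square per gene between libraries of a group was 1.62 to 55.8, where sampling noise alone gives about 1. The p-values measure the spread between the triplicates of 1 clone.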

Additional observations from a re-analysis of the deposited data

Results flagged for a closer look

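The late change of LGMN differed between the XBP1 clones by 0.62 (log2, clone 1 minus clone 18; edgeR adjusted p = 0.00486, higher in 3 of 3 clone 1 libraries at 72 h than at 24 h).

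The genes that follow are given for the difference between their change from 24 to 72 h in shXBP1 clone 1 and the mean of shIRE1 clones 1 and 3 (edgeR test of the difference over all genes). They were chosen by their change in the same shXBP1 clone 1 libraries, which favours a difference, so their number supports nothing. The values are log2, shXBP1 clone 1 minus shIRE1. Of the glycolysis and hypoxia list, PFKFB4 was higher in shXBP1 clone 1 by 4.96, P4HA2 by 2.02 and SLC2A3 by 1.37. Outside it, EGR1 was higher by 4.20, MIR210HG by 4.07, PPFIA4 by 2.97, AC246787.1 by 1.92, LGMN by 0.94, FUT11 by 0.91, RPL6 by 0.60, RIPOR2 by 0.39, PNRC1 by 0.35, ZFP36L2 by 0.33 and RPN2 by 0.32. Class II genes had differences of -1.07 (HLA-DQA1), -0.91 (HLA-DRB1) and -0.80 (HLA-DRA), and the cholesterol exporters of -1.89 (ABCA1) and -0.69 (ABCG1). Further differences were -1.17 for P2RY10, -0.66 for MTCYBP18, -0.66 for BCL2L11, -0.57 for MTCYBP35, -0.41 for ZBTB18 and -0.31 for BHLHE40. The causes were not tested. Differences in knockdown target, clone and culture cannot be told apart.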

How the results depend on the processing

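All 34 genes kept their direction under every alternative run; what moved was which side of the threshold they took, and the causes were not tested beyond the smaller number of libraries or genes that an alternative itself brings. Higher and lower calls for 72 against 24 h were 22 and 4 with RLE factors, 65 and 24 with no filter, 138 and 77 in a fit of all 48 libraries, 13 and 1 in a fit of the 6 libraries, 121 and 42 with DESeq2, 16 and 2 with limma on the log2 CPM, 10 and 2 at 1.5-fold or more, and 4 to 13 and 0 to 3 with a library left out. With the GC correction, added after seeing the data, they were 501 and 365, and 222 to 399 and 125 to 299 with a library left out as well. The replicate block, which treats same-numbered samples as paired, gave 15 and 2, and 378 and 240 with the GC correction.

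Deepened, reverted and newly appeared genes numbered 7, 7 and 12 with RLE factors, 23, 19 and 41 with no filter, 89, 46 and 70 with 48 libraries, 3, 3 and 16 without the 48 h libraries, 2, 1 and 5 at an adjusted p under 0.01, 57, 43 and 55 with DESeq2, 4, 6 and 8 with limma, 3, 5 and 9 with the replicate block, and 356, 234 and 237 with the GC correction. With a library left out they ranged over 0 to 22, 1 to 11 and 3 to 29 (highest without 0 h replicate 1), and with the GC correction over 155 to 434, 84 to 314 and 96 to 329.

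Clone 18 had 10 calls with the replicate block, 309 with the GC correction, 718 with it and without 72 h replicate 3, and 0 to 997 with a library left out (0 without 24 h replicate 2 or 3, 997 without 72 h replicate 1, 41 without 72 h replicate 3). The clones differed at 7 genes with the replicate block, 51 with the GC correction, 129 with it and without the library labelled clone 18 72 h replicate 3, and 1 to 12 with a library left out (12 without clone 18 72 h replicate 1). Clone 1 differed from shIRE1 at 2173 genes for shIRE1 clone 1 alone, 3550 for clone 3 alone, 5450 with the GC correction, 2998 with the replicate block, and 2777 to 3587 with a library left out.

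Depth limits genes under about 1 CPM. The median SE was 0.12 (log2), and 0.081 with the GC correction.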

Other observations

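In the GC-corrected fit of shXBP1 clone 1, and chosen after its values were seen, the immediate-early genes JUN and FOS moved with EGR1. Their first-day log2 changes were -2.01 (edgeR adjusted p = 2.26e-04) and -2.61 (1.44e-05), and they changed by 1.16 (edgeR adjusted p = 0.00802) and 0.82 (0.0413) from 24 to 72 h. Without the correction the adjusted p values were 0.169 and 0.274. In clone 18 the late changes were -0.15 for JUN and 0.10 for FOS, and the differences between the clones had edgeR adjusted p values of 0.118 and 0.320 with the correction.

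Among genes that fell in the same fit, IGHA1, an antibody heavy chain, changed by -0.58 (edgeR adjusted p = 8.01e-07) after -1.10 in the first day, and FUCA1, a lysosomal fucosidase, by -0.46 (0.0101) after 0.35. Neither gene was called without the correction. Of 37 lysosome and autophagy genes, 6 fell and 1 rose in the GC-corrected fit, with a median of -0.067. Of 29 genes of B and plasma cell identity 4 fell and none rose there, where 2.20% of all genes were lower and 3.02% higher.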
